A study of Arabidopsis thaliana with 2 samples.

Results

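The pseudo-response regulators (PRRs) described here are 5 clock proteins of Arabidopsis thaliana. All 5 of their genes were in the list of genes bound by LHY, which holds 1602 genes. They were picked by locus: PRR9 (AT2G46790), PRR7 (AT5G02810), PRR5 (AT5G24470), PRR3 (AT5G60100) and TOC1 (AT5G61380), which is also called PRR1. Together they carried 6 of the 1762 pairs of a gene and a peak in the list. Binding was measured by chromatin immunoprecipitation followed by sequencing (ChIP-seq), with an antiserum raised to full-length LHY, in seedlings of the Columbia ecotype at an age of 2 weeks. Tissue was taken 2 h after dawn. The DNA of 4 immunoprecipitations went into 1 library, and input DNA of the same kind of seedling was the control, so no value below has a replicate error and no test of a difference was possible. Read depth is unknown from the list, and no library from plants without LHY was analysed here.

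LHY is a MYB-type transcription factor that accumulates around dawn and represses many genes that are expressed later in the day. The PRR proteins combine a receiver-like domain, which lacks the phosphate-accepting aspartate of true response regulators, with a CCT domain that contacts DNA. They are made one after another through the day, PRR9 first and TOC1 last, and several of them repress LHY and its close relative CCA1. The PRR genes and LHY are thus linked in the central feedback loop of the plant clock.

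LHY peaks at 4 of the 5 genes were among the strongest of the whole list, and the peak at PRR3 was much weaker. Strength is the authors' −log10 of the q value of each peak, a figure of significance from the peak caller and not a measure of occupancy. It was 93.1 at PRR9, 98.9 at PRR7, 78.0 and 77.1 at the 2 peaks of PRR5, 14.2 at PRR3 and 182 at TOC1. By the strongest peak of each gene, TOC1 stood at rank 3 of 1602, PRR7 at 29, PRR9 at 34, PRR5 at 49 and PRR3 at 549. The median over the 5 genes was 93.1, against 10.3 over all listed genes, whose quartiles were 6.80 and 18.3.

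**Figure D1:**
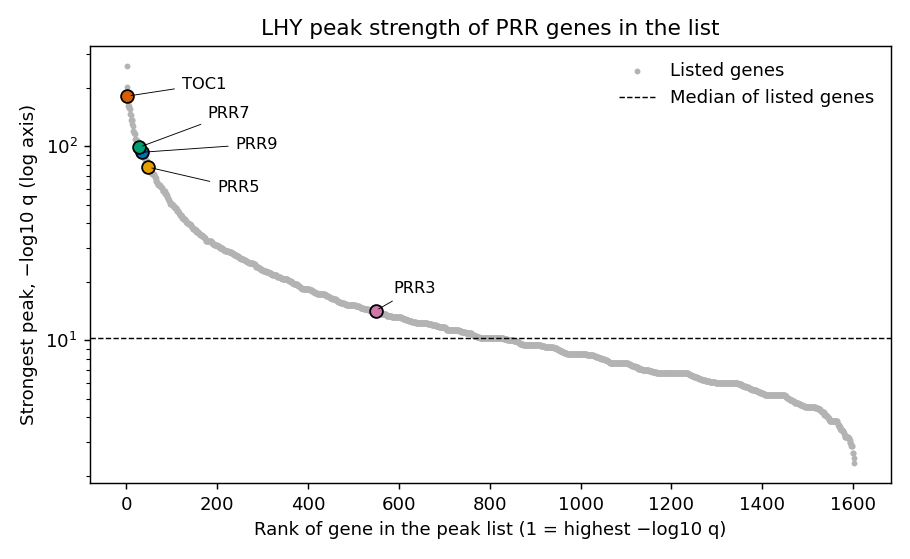
Strongest −log10 q per gene (log axis) against the gene's rank among the 1602 listed genes. TOC1, PRR7, PRR9 and PRR5 sit at the steep top end between 78.0 and 182, while PRR3 at 14.2 lies just above the dashed median of 10.3.

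Being listed at all was uncommon: 5.38% of nuclear protein-coding genes had a peak. The strongest peak of 4 of the 5 PRR genes was at or above the upper quartile, a level reached by 25.0% of listed genes by construction. Since the genes were chosen with results of this list already known, these counts are set beside the background and were not tested.

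The values differed widely between members. TOC1, which represses the morning genes CCA1 and LHY in the evening, had a value 1.83 times that of the next member. PRR7, PRR9 and PRR5 spanned only 78.0 to 98.9, a ratio of 1.27 between the ends. PRR3, which protects the TOC1 protein from the F-box protein ZTL, was lower than the lowest of the others by a factor of 5.50 and lower than TOC1 by a factor of 12.8. Its value was 1.38 times the median of all listed genes, and 65.6% of the other genes had a lower one. That percentage was 97.0 for PRR5, 97.9 for PRR9, 98.3 for PRR7 and 99.9 for TOC1.

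Closely related PRR genes had like values in one case and unlike values in another. In the functional descriptions of the authors' deposited table, the best protein match of PRR7 is PRR3 and that of PRR3 is PRR7, while PRR5 has PRR9 as its best match and TOC1 has PRR3. Of the mutually matched genes, PRR7 had a value 6.98 times that of PRR3, although their peaks were placed within 39 bp of each other on the scale of distance to the transcription start site (TSS). PRR9 had a value 1.19 times that of the stronger PRR5 peak, but the peaks of these genes differed in number and in place. The best match of PRR9 itself, a CCT motif gene (AT2G46670), was not in the list.

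The peaks of PRR7, PRR9, PRR3 and TOC1 lay close upstream of the TSS, within a narrow band. Positions are in bp relative to the TSS of the gene the authors paired with the peak, with negative values upstream, and come from an analysis on the TAIR9 build. The peak lay at −125 bp at PRR7, at −153 bp at PRR9, at −164 bp at PRR3 and at −192 bp at TOC1, so these 4 peaks spanned 67 bp. The point of a peak to which a position refers is not stated, and the sheared fragments ran from 100 to 1000 bp, so distances of this size are small against the fragments.

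**Figure D2:**
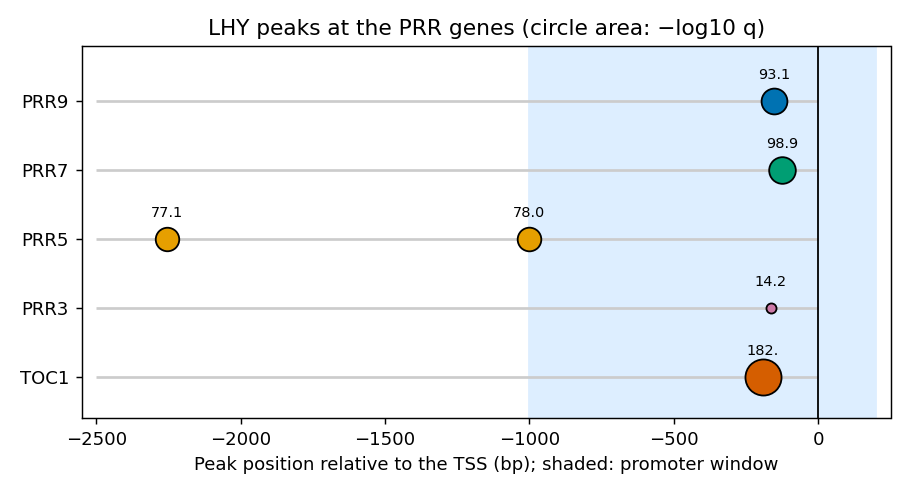
Position of all 6 LHY peaks relative to the TSS (bp) at the 5 genes, ordered from PRR9 to TOC1, with circle area and number giving −log10 q and the shading marking 1000 bp upstream to 200 bp downstream. The peaks of 4 genes lie between −192 and −125 bp, and those of PRR5 at −1003 and −2255 bp.

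A strongest peak at 1 to 200 bp upstream was found at 4 of the 5 PRR genes and at 26.7% of all listed genes; this band was chosen after the positions were seen. In the promoter window of 1000 bp upstream to 200 bp downstream, 4 of the 5 genes had a peak, against 3.83% of nuclear protein-coding genes and 70.2% of listed genes. Per the file headers a peak was given to the nearest gene that points away from it, which favours upstream positions. The list also held 198 of 1762 pairs at or downstream of the TSS, and 23 genes repeated the strongest value of a listed gene within 5 places.

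Nearness to the TSS did not go with one level of strength among the members. Among the 428 listed genes with a strongest peak in the 200 bp upstream, TOC1 had the highest value of all, PRR7 ranked 12 and PRR9 ranked 16, whereas PRR3 ranked 166. The median of those 428 genes was 11.2. PRR3 thus lay near that median, and the other 3 lay far above it at almost the same distance from the TSS.

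**Figure D3:**
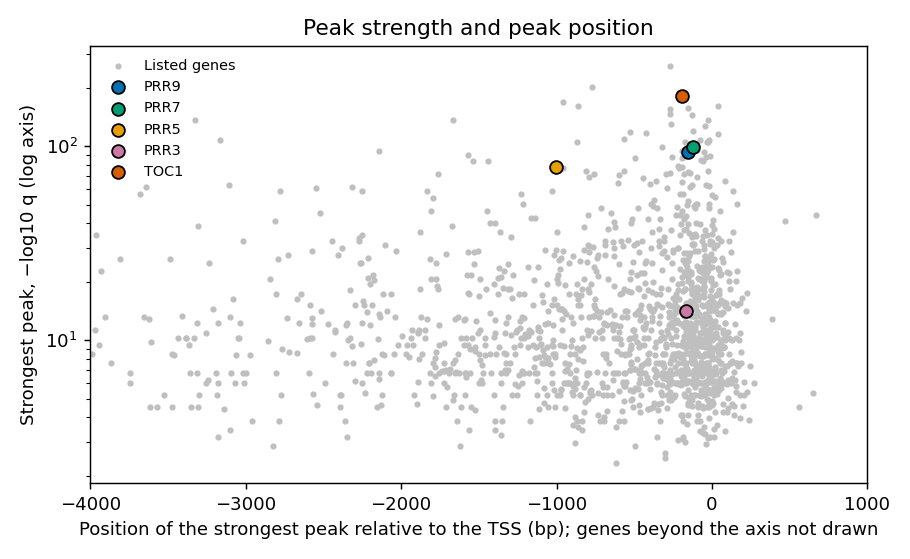
Strongest −log10 q per gene (log axis) against the position of that peak relative to the TSS (bp), without the 82 of 1602 listed genes that lie beyond the axis. TOC1, PRR7, PRR9 and PRR3 share a band of 67 bp, whose edges were set by their own positions. TOC1 is the highest of the 150 listed genes in that band.

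PRR5, a repressor of the later day that also helps TOC1 to enter the nucleus, was the exception in peak number and position. It had 2 peaks, at −1003 and −2255 bp, which lay 1252 bp apart. The stronger one missed the edge of the promoter window by 3 bp, so its place outside the window rests on where that edge was drawn. More than 1 peak was listed for 1 of the 5 PRR genes and for 9.11% of all listed genes.

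The 2 peaks of PRR5 were nearly equal, at 78.0 and 77.1, a gap of 0.956 on the −log10 scale. Among the 146 genes with several peaks, the second strongest peak had a median of 8.21 and was typically 0.507 times the strongest, with quartiles of 0.314 and 0.755. At PRR5 this ratio was 0.988, and 0 of the 146 genes had a higher one. Ratios nearly as high occurred at genes with much weaker peaks, so near-equality alone was not particular to PRR5. Examples were KAI2 with 0.984 (8.55 and 8.41) and A/N-InvC with 0.965 (11.7 and 11.3). The second peak of PRR5 was the highest second peak of the list. It was ahead of that of GI with 66.0 beside a first peak of 162 and that of AT4G33980 with 43.8 beside 56.9. The distance between the PRR5 peaks was close to the median of 1194.5 bp over genes with several peaks. Adding the values of both peaks gave 155 for PRR5 and would place it at rank 11 in the list. These comparisons of PRR5 with other genes were chosen after its values were seen.

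**Figure D4:**
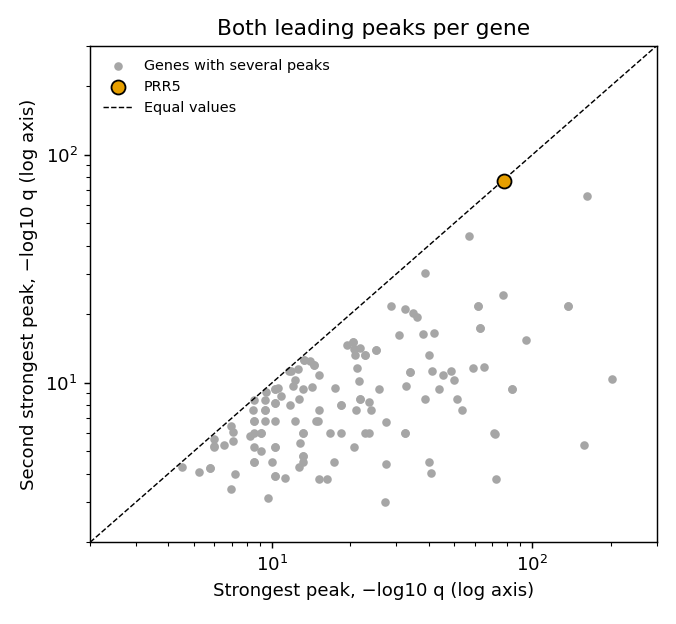
Second strongest against strongest −log10 q (both axes log) for the 146 genes with several peaks. PRR5, at 78.0 and 77.1, lies on the dashed line of equal values, and all other second peaks are lower than its own.

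Every PRR gene had a phase of expression, as did 38.1% of listed genes. The phases refer to constant light and were copied from the Diurnal database, so they come from other experiments. They were 3 h after subjective dawn for PRR9, 6 h for PRR7, 7 h for PRR5, 8 h for PRR3 and 10 h for TOC1. Of the 610 listed genes with a phase, 346 (56.7%) peaked within the same span of 3 to 10 h.

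Peak strength did not follow the order of phases. Along that order the strongest values ran 93.1, 98.9, 78.0, 14.2 and 182, so that the latest member had the highest value and the member before it the lowest. The medians of all listed genes at those hours were 18.7 at 3 h, 14.2 at 6 h, 14.6 at 7 h, 14.2 at 8 h and 22.6 at 10 h.

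Within its own hour, each PRR gene except PRR3 was near the top. TOC1 was second of 42 genes at 10 h, after FKF1, a blue-light receptor of the day-length pathway with 260.1. PRR5 was second of 57 genes at 7 h, after GI. PRR7 ranked 3 of 37 at 6 h, behind AT3G46630 with 148 and PORB, an enzyme of chlorophyll synthesis, with 145. PRR9 ranked 5 of 32 at 3 h, behind CAB1 with 158, EPR1 with 129.9, LHCA4 with 108 and LHB1B1 with 105. CAB1, LHCA4 and LHB1B1 encode light-harvesting proteins and EPR1 is a MYB-type relative of LHY. PRR3 ranked 47 of 93 at 8 h, and its value was itself the median of that hour.

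**Figure D5:**
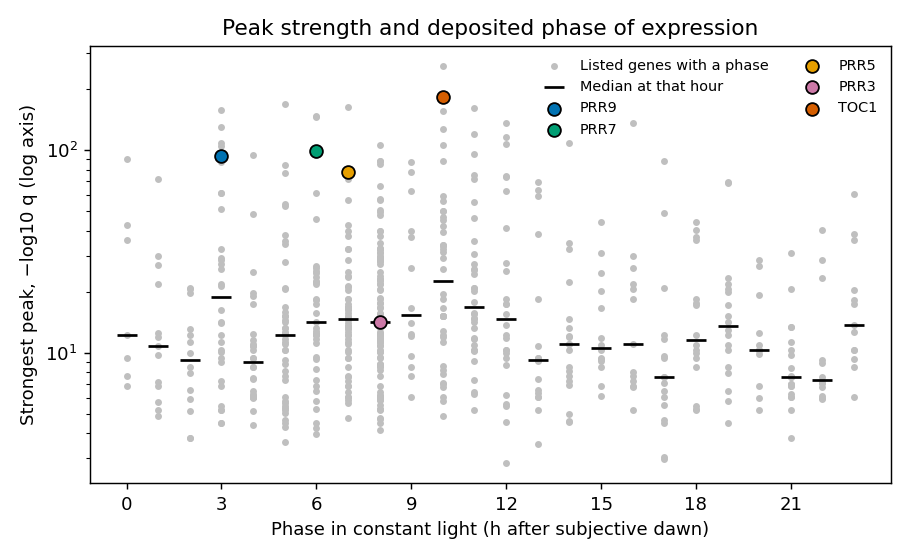
Strongest −log10 q (log axis) against phase of expression (h after subjective dawn) for the 610 listed genes with a phase, with bars at the median of each hour. PRR9, PRR7, PRR5 and TOC1 lie far above the medians of their hours, and PRR3 lies on the median of 14.2 at 8 h.

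Other listed genes were compared with each member in phase, position and value together. Likeness was defined as a phase within 1 h, a strongest peak within 100 bp of the member's own and a −log10 q within 1.5 times. FKF1 (260.1 at −273 bp) and the B-box gene BBX8 (156 at −267 bp), both at 10 h, met it for TOC1. For PRR9 these were MYBL2, a MYB-type repressor of flavonoid genes (94.1 at −195 bp, 4 h), and LHB1B1 (105 at −172 bp, 3 h), and for PRR7 the single such gene was PORB (145 at −127 bp, 6 h). PRR5 had 0 and PRR3 had 20, the nearest in value being AT1G19660, HEME1 and ERF2 with 14.6 to 14.7. Values near that of PRR3 are common in the list and values as high as those of the other members are rare, so these counts follow in part from the value alone.

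The receiver and CCT domains were annotated together in the deposited descriptions of the 5 PRR genes and in 0 other listed genes. A receiver domain was annotated in 8 listed genes. The other 3 were ARR7 (10.3 at −144 bp), ARR9 (6.85 at −740 bp) and ARR8 (5.23 at −1286 bp), type-A response regulators that dampen cytokinin signalling. All 3 had lower values than PRR3. Of the fixed list of 10 type-A genes these were the 3 with a peak, and of 11 type-B response regulator genes, which activate transcription in response to cytokinin, 0 had one. The remaining pseudo-response regulator genes APRR2, APRR4 and APRR6 were not in the list either. A peak was listed for 5.38% of nuclear protein-coding genes, so 3 of 21 response regulator genes is a small count to read.

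A CCT domain or motif was annotated in 18 listed genes. The 13 that are not PRR genes ran from 3.81 to 156 with a median of 13.0, so the value of PRR3 lay near the middle of that group and TOC1 lay above its highest gene, BBX8. They included 3 jasmonate-ZIM-domain genes, with 13.0 to 18.6, and 8 B-box or CONSTANS-like genes, with 3.81 to 156.

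Some of the genes whose products act on the PRR proteins or genes were listed, as were 5.38% of nuclear protein-coding genes. The F-box protein ZTL targets TOC1 and PRR5 for breakdown, and FKF1 and LKP2 are its relatives. Of the 4 genes made up of these and GI, which stabilises ZTL, 2 had peaks, FKF1 (260.1) and GI (162 and 66.0). In the list of 4 evening complex genes, whose products repress PRR9, 3 were listed. ELF4 (107 at −76 bp), ELF3 (62.7 at −19 bp) and BOA (127 at −45 bp) had peaks and LUX was not listed under its own locus. AT3G46630, the gene next to LUX in the annotation order, was listed with 148 at −267 bp, and whether that peak also lies by LUX was not analysed here. Among 5 genes of activators that raise PRR5 and TOC1 expression, 1 was listed, LNK2 (27.2 at −147 bp), and RVE4, RVE6, RVE8 and LNK1 were not.

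Known targets of the PRR proteins were also present. Of 11 such genes, 6 were listed, beside 5.38% of nuclear protein-coding genes. All 6 had a peak in the promoter window, as did 70.2% of listed genes. They were CCA1 (60.6), LHY (28.7), LNK2 (27.2), CDF5 (25.8), CDF1 (21.7) and PIF4 (15.2). CDF1 and CDF5 repress CONSTANS, the day-length regulator of flowering, and PIF4 promotes growth. The strongest of the 6 was below the lowest peak of PRR5, and the weakest was above the peak of PRR3 (14.2). RVE8, LNK1, CDF2, CDF3 and PIF5 were not listed. Of 6 genes encoding protein partners, 3 were listed, beside the same 5.38%: CHE (77.3 at −961 bp and 24.2 at −1808 bp), a TCP factor that works with TOC1 at CCA1, PIF4 and the corepressor gene TPL (5.54). CO, PIF3 and WNK1 were not listed. These lists were assembled with earlier results of the same peak list known.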

How the data were processed

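One pooled LHY ChIP-seq library was compared with 1 pooled input library by the authors. The submitters' processing notes name Bowtie, MACS2 2.0.10.09132012 and the TAIR9 build. The Bowtie version, the handling of multiply mapping reads and the peak threshold are not given. The deposited table gives, per gene, up to 4 peaks with a −log10 q value and a position relative to the TSS, per the file headers. Elsewhere the header describes these figures as −log10 p-values. Phases passed a database cut-off of 0.8, per the file headers.

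Values were ranked within the list, and percentages count other genes with a lower value. Symbols, biotypes and gene order came from a TAIR10.1 gene table (1596 of 1602 loci matched, 27444 nuclear protein-coding genes); no coordinate from it was used. RVE6 and CDF5 were used by locus, since that table did not pair them with these symbols. The named genes were the 5 members, the listed and absent genes of the pathway lists, genes alike in phase, position and value, and immediate neighbours; other genes were named after their values were seen. Members and lists were chosen with earlier results of these data known. Ranking and window counting were tested on simulated data. Sequence motifs were not analysed here. Python 3.11.15, NumPy 2.4.6, pandas 2.3.3, SciPy 1.17.1 and Matplotlib 3.10.9 were used.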

Additional observations from a re-analysis of the deposited data

How the results depend on the processing

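Of 29 alternative values, 23 stayed within the 95% exact binomial (Clopper-Pearson) interval of the percentage or within 1.5 times the count. The interval treats genes as independent and covers no variation between chromatin preparations. It served only as a tolerance, since a rank within a complete list has no sampling error, and its width differed between members. The members were also ranked among the 610 genes with a phase alone. The percentage of genes with a lower value was then 95.9 for PRR9, 96.6 for PRR7, 94.3 for PRR5 and 55.3 for PRR3. The members' own values were the same in both rankings. The shift therefore came from the compared genes, as a smaller share of the genes with a phase lay below these members. Why the genes with a phase differ in this way was not tested. With the values of all peaks of a gene added, the percentage of genes with a lower value was 99.4 for PRR5, which has 2 peaks, and 62.9 for PRR3, which has 1. TOC1 stayed between 99.8 and 99.9 under all 5 rankings. The number of members with a peak in the window was 4 with 500 bp upstream or with peaks above the median alone, and 5 with 3000 bp. A count of 5 is within 1.5 times 4, so a wider window could not count as a change. Both peaks of PRR5, 78.0 and 77.1, were far above the median of 10.2 over all peaks. The count of 1 member with more than 1 peak therefore could not change when only peaks above that median were kept. The planned count of promoters with an evening element core was not run, since it needs sequence. No paired analysis was possible because there was 1 library of each kind.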

Other observations

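Listed genes also lay beside some PRR genes in the annotation order; those more than 1 place away were looked up after their values were seen. The immediate neighbour of PRR9 on one side, the zinc transporter gene ZAT (AT2G46800), had a peak of 12.7 at −11 bp and a phase of 23 h, and CCA1, 4 places from PRR9, had 60.6 at −292 bp and the same phase of 23 h. TOE2, an AP2-type floral repressor gene 2 places from PRR3, had 26.6 at −2212 bp, a higher value than PRR3 itself. For TOC1, PRR7 and PRR5, 0 of the 10 genes within 5 places were listed. No neighbour within 5 places carried a value equal to that of a PRR peak, which would have marked a peak listed under both genes. The value of PRR3, 14.2, was shared exactly with 2 distant genes, AT1G68490 and SNRK2.3, so an equal value alone does not mark a shared peak.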
